A study of Homo sapiens with 4 samples.

Results

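The genes described here encode the cytosolic and mitochondrial chaperones and the cochaperones that steer them. The group was set as 45 gene symbols, and every one of the 45 was found among the 23622 genes of the deposited table after Ensembl identifiers had been matched to symbols. By role, 9 members belong to the HSP90 system, 15 to the HSP70 system, 8 to the CCT chaperonin, 5 to prefoldin and 5 to the mitochondrial chaperones, and the remaining 3 are the small heat shock protein HSPB1 and the heat shock factors HSF1 and HSF2. RNA was sequenced from MV4-11, an established human acute myeloid leukemia cell line given as wild type in the labels, in 2 NC libraries and in 2 sh-IRF1 libraries. The labels give NC no treatment and sh-IRF1 a knockdown of IRF1, an interferon-regulated transcription factor, while the study describes its negative control as a hairpin named sh-NC. A short hairpin RNA is trimmed by the cell into a small interfering RNA, which leads to the loss of transcripts that it pairs with. All 4 libraries thus came from 1 cell line with 1 knockdown target, and the sources used here name neither the hairpin behind each sh-IRF1 library nor separate cultures, so that p-values measure the spread between these libraries, which may be technical.

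Chaperones bind unfolded proteins and release them in cycles driven by ATP. HSP70 proteins take up short exposed stretches with the help of J proteins, nucleotide exchange factors renew the cycle, and HSP90 receives selected clients, among them kinases and steroid receptors, through the adaptor STIP1 (HOP) and closes on them with the cochaperone p23, the product of PTGES3. The chaperonin CCT (TRiC) folds actin and tubulin inside a double ring of 8 different subunits and is fed by prefoldin, and HSPD1 with its lid HSPE1 does the like in the mitochondrial matrix. Heat shock factors bind repeated GAA units, called heat shock elements, in front of many of these genes.

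The sequences given here are those in front of the members on which the results turn: the genes with the most negative and the most positive change (PTGES3 and HSPA1A), both cytosolic HSP90 genes, HSPB1, HSPA9, and the stretch between the divergent starts of HSPD1 and HSPE1. They are the 250 bases before a start site, 5' to 3' on the strand of the gene, from RefSeq on GRCh38.p14. Of several starts of a gene, the one with the most 3-unit heat shock elements in these bases was taken. The HSPD1-HSPE1 stretch is the 104 bases between both starts, on the plus strand. Capitals mark heat shock elements with at least 2 units (GAANNTTC or TTCNNGAA) and the E-box CACGTG, a sequence that MYC and related factors bind.
PTGES3, chr12:56688285-56688534, minus strand: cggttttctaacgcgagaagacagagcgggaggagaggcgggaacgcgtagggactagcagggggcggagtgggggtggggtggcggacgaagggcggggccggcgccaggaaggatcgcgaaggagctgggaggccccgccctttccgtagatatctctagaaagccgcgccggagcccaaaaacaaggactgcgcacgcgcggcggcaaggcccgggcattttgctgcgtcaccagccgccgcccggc
HSP90AB1, chr6:44247693-44247942, plus strand: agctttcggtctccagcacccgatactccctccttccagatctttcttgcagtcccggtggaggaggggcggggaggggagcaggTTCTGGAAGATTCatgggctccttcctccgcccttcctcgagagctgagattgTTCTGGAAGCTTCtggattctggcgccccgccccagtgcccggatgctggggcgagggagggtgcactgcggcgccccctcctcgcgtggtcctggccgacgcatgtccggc
HSP90AA1, chr14:102087045-102087294, minus strand: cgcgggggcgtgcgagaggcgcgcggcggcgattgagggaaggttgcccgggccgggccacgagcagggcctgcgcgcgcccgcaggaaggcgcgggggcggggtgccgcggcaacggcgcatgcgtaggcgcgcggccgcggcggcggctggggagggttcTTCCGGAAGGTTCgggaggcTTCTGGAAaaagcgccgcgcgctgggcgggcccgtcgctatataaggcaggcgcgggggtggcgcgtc
HSPA1A, chr6:31815293-31815542, plus strand: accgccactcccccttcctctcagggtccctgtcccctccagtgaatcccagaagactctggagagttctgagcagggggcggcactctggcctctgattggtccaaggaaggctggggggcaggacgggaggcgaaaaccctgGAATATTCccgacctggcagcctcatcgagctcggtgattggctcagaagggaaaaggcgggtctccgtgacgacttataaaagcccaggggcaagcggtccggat
HSPB1, chr7:76302423-76302672, plus strand: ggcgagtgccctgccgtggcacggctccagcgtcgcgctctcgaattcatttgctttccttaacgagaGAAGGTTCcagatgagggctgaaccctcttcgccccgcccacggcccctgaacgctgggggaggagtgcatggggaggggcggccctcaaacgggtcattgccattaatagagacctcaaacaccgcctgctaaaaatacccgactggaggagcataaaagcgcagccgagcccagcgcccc
HSPA9, chr5:138575402-138575651, minus strand: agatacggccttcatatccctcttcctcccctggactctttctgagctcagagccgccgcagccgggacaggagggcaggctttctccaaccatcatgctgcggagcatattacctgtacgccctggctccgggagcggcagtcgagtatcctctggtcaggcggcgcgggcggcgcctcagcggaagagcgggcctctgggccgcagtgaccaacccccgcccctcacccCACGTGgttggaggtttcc
HSPD1-HSPE1, chr2:197500275-197500378, plus strand: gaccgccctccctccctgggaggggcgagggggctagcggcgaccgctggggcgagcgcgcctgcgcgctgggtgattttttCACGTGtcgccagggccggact

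Both HSP90 genes carried 3-unit elements, HSP90AB1 from 165 and 112 bases and HSP90AA1 from 88 bases before the start shown. A further start of HSP90AA1 held no heat shock element, and the start shown was taken for its 3-unit element. HSPA1A held GAATATTC 106 bases before its start and HSPB1 held GAAGGTTC 182 bases before its start. HSPA9 carried CACGTG 19 bases before the start, and a 2-unit element that spans the start and so is not shown whole. In the 104 bases between HSPD1 and HSPE1, CACGTG lay 88 bases before the start of HSPD1 and 22 bases before that of HSPE1. The PTGES3 window held none of the motifs searched.

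Across the 39 members with a promoter window (250 bases before to 50 bases after a start, any start of the gene, both strands), 17 held a 2-unit element, which was present for 16.2% of 27305 genes. A 3-unit element (GAANNTTCNNGAA or TTCNNGAANNTTC), whose letters also contain the 2-unit form, was found for 6 members, HSP90AA1, HSP90AB1, HSPA8, DNAJA1, DNAJB6 and HSPD1, and for 0.608% of all genes. CACGTG was found for FKBP5, HSPA9, HSPD1, HSPE1 and HSF2, 5 members, against 8.78% of all genes. The letters GAAANNGAAA or TTTCNNTTTC, a repeat that interferon regulatory factors bind, were found for 1 member, PFDN6, and for 4.38% of all genes. CCAAT or ATTGG was found for 14 members (39.7% of all genes) and TATAAA or TTTATA for 4 members (14.0% of all genes). A match to such letters is a description of the sequence, not a measured binding site.

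The libraries held between 17635908 and 18695337 reads. Values are normalized counts, the reads of a gene divided by 1 size factor per library, and changes are log2 differences between sh-IRF1 and NC on log2(normalized count + 1), tested with limma over the 14120 genes that reached 10 in 2 or more libraries. A gene was called when its p, adjusted by the Benjamini-Hochberg method over all 14120, was under 0.05. With 2 libraries a group the smallest two-sided p of an exact permutation test is 0.333, and the calls below rely on limma's estimate of the spread, which draws on many genes. IRF1, the targeted gene, was at 785 and 739 in NC and at 430 and 432 in sh-IRF1 (log2 fold change -0.82, limma adjusted p = 1.69e-10). Of its exonic bases, 22.9% are shared with other genes, so that part of its reads is uncertain. All 11 myeloid markers searched were present, with a summed normalized count of 29152 to 29218 in NC and 26185 to 26230 in sh-IRF1. Of these, 4 were called lower and 3 higher. MPO, a granule enzyme, was at 477 and 443 in NC and at 185 and 158 in sh-IRF1 (log2 fold change -1.42, limma adjusted p = 7.78e-13), whereas LYZ, lysozyme, was at 1824 and 1785 in NC and at 3276 and 3218 in sh-IRF1 (0.85, limma adjusted p = 3.83e-20). The markers of the myeloid line thus changed in both directions. The 3 T cell and 2 erythroid markers had no row in the table. Of B cell markers, MS4A1 had no row, and CD79A was at 50.3 and 43.1 in NC and at 190.0 and 250.2 in sh-IRF1 (log2 fold change 2.20, limma adjusted p = 4.46e-12). The part of these markers in the results below was not tested. In bulk RNA, fewer cells of a kind and less RNA per cell cannot be told apart.

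All 45 members passed the filter on low values. Of these, 26 were called lower in sh-IRF1 (57.8% of the members, beside 21.9% of all genes tested) and 1 was called higher (2.22% of the members, beside 20.3% of all genes). The members' median log2 fold change was -0.20, while the median over all genes was 0.00, with quartiles of -0.25 and 0.27. Most of the changes were therefore small. With a log2 fold change also beyond 0.5, PTGES3, BAG3, HSPB1 and HSPA9 remained, 4 members lower (7.56% of all genes), and HSPA1A remained, 1 member higher (8.27% of all genes). Both sh-IRF1 libraries lay below both NC libraries for 33 members (35% of all genes) and above them for 7 (34.2% of all genes), and the groups overlapped for 5. Summed over the members, the normalized counts came to 1.25% and 1.24% of all counts in NC and to 1.09% and 1.08% in sh-IRF1. The summed count in sh-IRF1 was 84.6% of that in NC. With the libraries scaled to their total reads, 25 members were lower and 5 higher. With the variance shrinkage of limma run without its robust setting and without its trend over expression level, 10 were lower and 1 higher. Those 10 were PTGES3, BAG3, DNAJC7, TCP1, CCT2, CCT4, CCT8, HSPA9, HSPD1 and HSPB1. The count of members higher was also 2 rather than 1 with a filter at 50, with edgeR and without NC replicate 1.

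**Figure D1:**
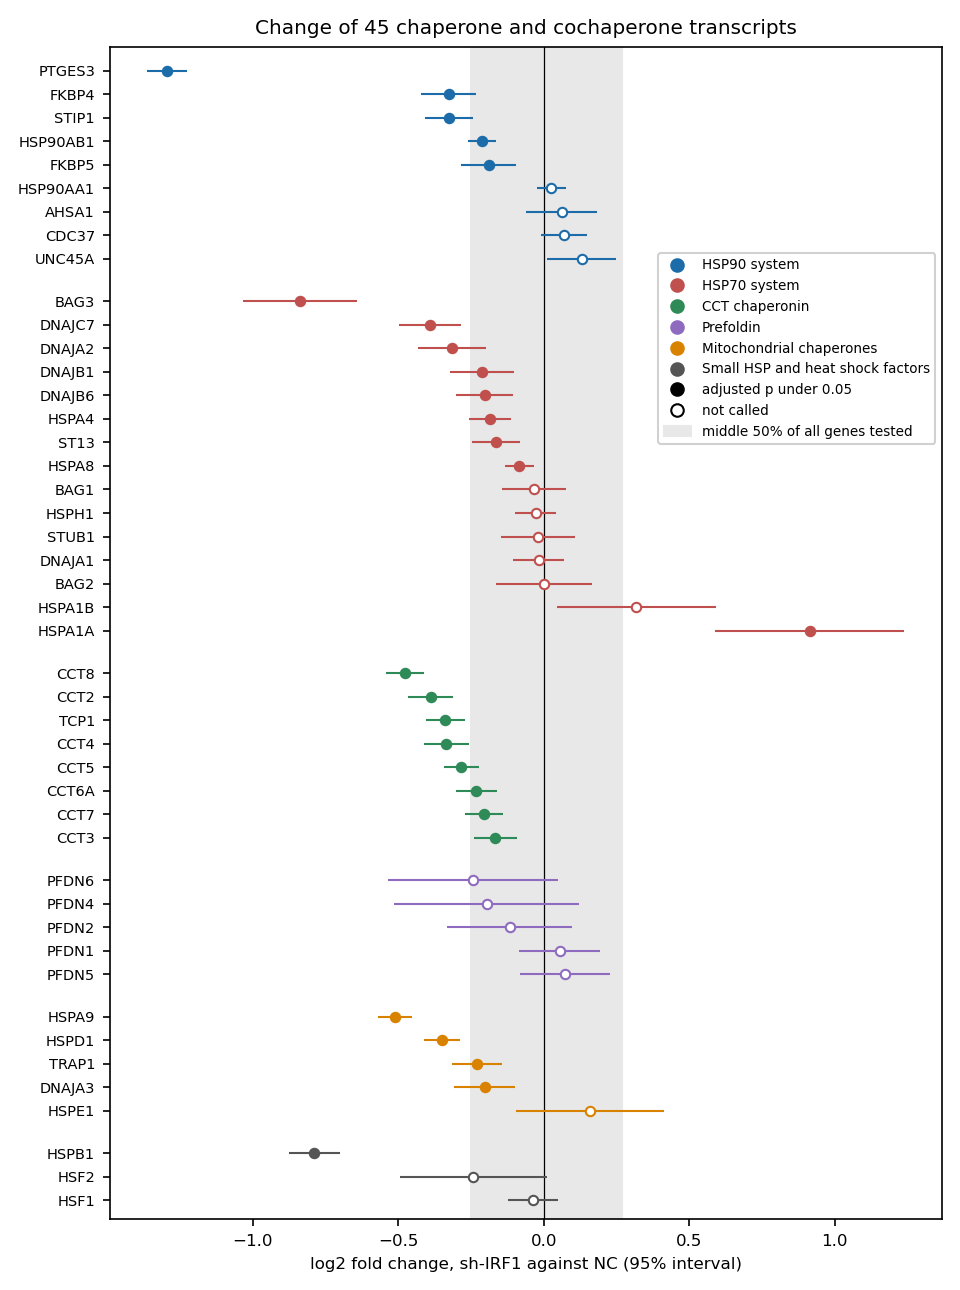
The plot gives, on the x axis, the log2 change from NC to sh-IRF1 for each of the 45 members, grouped by role, with lines for the 95% interval, filled points for an adjusted p under 0.05 and a grey band between the quartiles of all genes tested. All 8 CCT points are filled and lie left of 0, none of the 5 prefoldin points is filled, and HSPA1A is the only filled point right of 0 with the authors' size factors.

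By role the groups differed in how many members were called, beside 21.9% of all genes called lower. The prefoldin members had fewer reads than CCT, which makes a call of a small change less likely. All 8 CCT subunits were called lower (median log2 fold change -0.31), as were 4 of 5 mitochondrial chaperones (median -0.23), 5 of 9 members of the HSP90 system (median -0.19) and 8 of 15 of the HSP70 system (median -0.08), whereas 0 of the 5 prefoldin subunits among the 45 were called (median -0.12). The prefoldin subunit VBP1, which is not among them, was called lower. Without PTGES3 the HSP90 system had 4 of 8 members lower and a median of -0.08. The summed normalized counts in sh-IRF1 were 76.6% of NC for the mitochondrial chaperones, 81.2% for CCT, 84.9% for the HSP90 system, 92.4% for the HSP70 system and 99.6% for the 5 prefoldin members. These groups of members were compared by their counts and medians only.

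PTGES3, on chromosome 12 from 56663341 to 56688408 (GRCh38, GENCODE 44), encodes p23, the cochaperone that holds HSP90 in its closed, client-bound state. Its normalized count was 10483 and 10462 in NC and 4273 and 4266 in sh-IRF1. The replicates of each group were nearly equal and the groups lay far apart, with 40.8% of the NC level in sh-IRF1. The log2 fold change was -1.29 (SE 0.0333, 95% interval -1.36 to -1.23, limma adjusted p = 1.06e-32), the most negative of all 45 members. Its exons overlap no other annotated gene, and the reads of 2 named pseudogenes in the table came to 1.77% of its own.

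HSP90 itself is made from a pair of cytosolic genes, HSP90AB1, which is expressed constitutively, and HSP90AA1, which is inducible by heat. HSP90AB1 was at 25917 and 25848 in NC and at 22523 and 22209 in sh-IRF1. Both sh-IRF1 values were below both NC values, a log2 fold change of -0.21 (SE 0.0238, limma adjusted p = 3.13e-10). HSP90AA1 was at 18744 and 18402 in NC and at 19010 and 18826 in sh-IRF1. Its sh-IRF1 values were the higher ones, but the difference did not pass the test (0.03 on the log2 scale, 95% interval -0.02 to 0.08, limma adjusted p = 0.427), although it was called higher when libraries were scaled to total reads (0.07, limma adjusted p = 0.0184). The share of HSP90AB1 in the summed counts of both genes was 58.0% and 58.4% in NC and 54.2% and 54.1% in sh-IRF1, without overlap. Per kb of the canonical transcript, the count of PTGES3 over that of both HSP90 genes was 0.346 and 0.348 in NC and 0.153 and 0.155 in sh-IRF1. Against its HSP90 partners the p23 transcript thus stood lower in each sh-IRF1 library than in either NC library.

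The other cochaperones of HSP90 split. STIP1, the adaptor that links HSP70 to HSP90, was at 4434 and 4207 in NC and at 3387 and 3514 in sh-IRF1 (log2 fold change -0.32, SE 0.0408, limma adjusted p = 5.36e-09). FKBP4 (FKBP52), an immunophilin that helps steroid receptors, was at 2889 and 2761 in NC and at 2301 and 2205 in sh-IRF1 (log2 fold change -0.33, limma adjusted p = 1.28e-07). FKBP5 (FKBP51), its relative that dampens the glucocorticoid receptor, was at 2568 and 2619 in NC and at 2261 and 2290 in sh-IRF1 (log2 fold change -0.19, limma adjusted p = 9.34e-04). In these 3 genes both sh-IRF1 libraries were below both NC libraries. The ratio of FKBP4 to FKBP5 per kb was 1.14 and 1.06 in NC and 1.03 and 0.972 in sh-IRF1, values so close that the nearest libraries of both groups differed by less than the NC replicates did. The members that bring kinases and myosin to HSP90 or speed its ATP cycle were not called: CDC37, the kinase cochaperone, had a log2 fold change of 0.07 (limma adjusted p = 0.161), AHSA1, an activator of the ATPase, 0.06 (limma adjusted p = 0.435) and UNC45A, a myosin cochaperone, 0.13 (limma adjusted p = 0.0706). For all 3 the sh-IRF1 libraries lay above the NC libraries, and CDC37 and UNC45A were called higher with total-read scaling (limma adjusted p = 0.0167 and 0.0136). Of the exonic bases of FKBP4 and UNC45A, 11.4% and 20.1% are shared with other genes, so that part of their reads is uncertain.

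**Figure D2:**
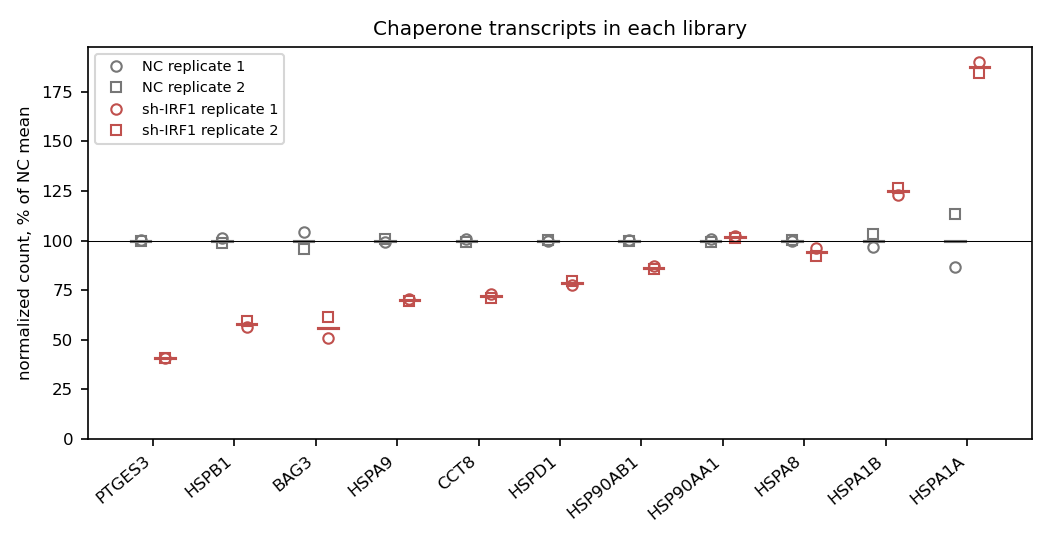
The plot gives the normalized count of 11 members in each library as a percentage of the NC mean on the y axis, with circles and squares for replicates 1 and 2, grey for NC, red for sh-IRF1 and bars for the group means. PTGES3 lies near 40.8% in both sh-IRF1 libraries and HSP90AA1 near 100%, while HSPA1A is spread more widely between its NC libraries than any other member drawn.

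In the HSP70 system, 8 members were called lower, HSPA8 by the smallest amount, and 1 heat-inducible gene was called higher. HSPA8 (HSC70), the constitutive HSP70, was at 23453 and 23562 in NC and at 22676 and 21703 in sh-IRF1. Both sh-IRF1 values were lower (log2 fold change -0.08, SE 0.0249, limma adjusted p = 0.00542), but the call was lost without sh-IRF1 replicate 2 (-0.05, limma adjusted p = 0.268) and with total-read scaling (-0.04, limma adjusted p = 0.199). HSPA1A, a heat-inducible HSP70, was the only member called higher (total-read scaling added 4 others), at 117 and 153 in NC and at 257 and 249 in sh-IRF1. The groups did not overlap although the NC libraries differed from each other, and the log2 fold change was 0.91 (SE 0.161, limma adjusted p = 6.76e-06). Its neighbour HSPA1B was at 216 and 231 in NC and at 276 and 283 in sh-IRF1, and its difference (log2 fold change 0.32, limma adjusted p = 0.053) missed the threshold but was called with total-read scaling (limma adjusted p = 0.0262) and with edgeR on the recovered reads (adjusted p = 0.0477).

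These genes encode nearly the same protein, and their transcripts share 72.4% of the 100-base windows of HSPA1A and 68.9% of those of HSPA1B, so the split of reads between them is uncertain. Summed, HSPA1A and HSPA1B stood at 333 and 384 in NC and at 532 and 532 in sh-IRF1. The sum was higher in both sh-IRF1 libraries, with a log2 fold change of 0.57 (limma adjusted p = 1.29e-05). It equalled 1.42% and 1.63% of the HSPA8 count in NC and 2.35% and 2.45% in sh-IRF1, so the inducible HSP70 transcripts remained a small part of the HSP70 pool in every library.

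BAG3, an exchange factor that works with HSP70 and small heat shock proteins in selective autophagy, was at 770.4 and 706 in NC and at 374 and 453 in sh-IRF1. The sh-IRF1 libraries differed from each other but both lay below NC, a log2 fold change of -0.84 (SE 0.0971, limma adjusted p = 6.25e-10). Its relatives were not called. BAG1, an exchange factor, and BAG2, which inhibits the ubiquitin ligase CHIP, had log2 fold changes of -0.03 and 0.00, with overlapping groups, and STUB1, which encodes CHIP, had -0.02. HSPH1, the HSP110 exchange factor, had -0.03 and was not called, while HSPA4, another protein of that family, fell by 0.19 on the log2 scale (limma adjusted p = 2.71e-05). Among listed HSPA genes outside the members, HSPA4L and HSPA2 were called higher (log2 fold changes 0.85 and 0.76) and HSPA14 lower (-0.24). ST13 (HIP), which stabilises HSP70 bound to a client, fell by 0.16 (limma adjusted p = 0.00105).

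J proteins load clients on HSP70 and start its ATP hydrolysis. Of the 5 among the members of the HSP70 system, 4 were called lower, beside 21.9% of all genes. Other DNAJ genes, outside the members, went both ways. DNAJB2, DNAJB4, DNAJC5 and DNAJC13 were called higher (log2 fold changes 0.58, 0.46, 0.27 and 0.16). DNAJC21, DNAJC2 and DNAJC8 were called lower (-0.33, -0.24 and -0.18). DNAJC7, a J protein that also binds HSP90, was at 2076 and 2136 in NC and at 1619 and 1596 in sh-IRF1 (log2 fold change -0.39, limma adjusted p = 2.90e-08). DNAJA2 fell by 0.31 on the log2 scale (limma adjusted p = 1.21e-05). DNAJB1, the heat-inducible HSP40, fell by 0.21 (limma adjusted p = 0.00131), and DNAJB6, a suppressor of aggregation, fell by 0.20 (limma adjusted p = 6.87e-04). DNAJA1 had a log2 fold change of -0.02, with a 95% interval of -0.11 to 0.07, and was not called. The groups of the 4 members called lower did not overlap, and none of these members exceeded a log2 change of 0.5.

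For every subunit of the CCT ring both sh-IRF1 libraries lay below both NC libraries, and each subunit was called. CCT8, the theta subunit, had the most negative change of the ring, at 9093 and 8978 in NC and at 6588 and 6408 in sh-IRF1 (log2 fold change -0.48, SE 0.0323, limma adjusted p = 5.08e-17). The values of CCT3, the gamma subunit, which changed least, were 6005 and 6471 in NC and 5514 and 5593 in sh-IRF1 (log2 fold change -0.17, limma adjusted p = 1.89e-04). Its NC libraries differed from each other about as much as the nearer of them differed from sh-IRF1. Between these lay CCT2 (-0.39), TCP1 (-0.34), CCT4 (-0.33), CCT5 (-0.28), CCT6A (-0.23) and CCT7 (-0.21). The 95% intervals of CCT8 (-0.54 to -0.41) and CCT3 (-0.24 to -0.09) did not meet. The difference between subunits was not itself tested. The ratio of the subunit with the most to that with the fewest counts per kb was 2.30 and 2.38 in NC and 2.42 and 2.34 in sh-IRF1, with overlapping groups. CCT5, CCT4 and TCP1 share 30.8%, 16.9% and 12.4% of their exonic bases with other genes.

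Prefoldin is a hexamer that hands newly made actin and tubulin to CCT, and 5 of its subunits are among the 45 genes. None of these 5 was called. PFDN6 had a log2 fold change of -0.24 (limma adjusted p = 0.183), PFDN4 of -0.20 (limma adjusted p = 0.336) and PFDN2 of -0.12 (limma adjusted p = 0.407), each with both sh-IRF1 libraries below NC. PFDN1 and PFDN5 had 0.06 and 0.07, with overlapping groups. VBP1 (PFDN3), the other subunit of the hexamer, is not among the 45 and was named after its values had been seen, at 1025 and 1018 in NC and at 959 and 824 in sh-IRF1. It was called lower (log2 fold change -0.20, 95% interval -0.35 to -0.05, limma adjusted p = 0.0255). But the call was lost without sh-IRF1 replicate 2 (-0.09) and without NC replicate 1. It was also lost with total-read scaling (-0.16, limma adjusted p = 0.0832), with DESeq2 (adjusted p = 0.0836) and without the robust and trend settings of limma. The 5 prefoldin transcripts had fewer reads and wider intervals than CCT: that of PFDN4, at 187 and 200.3 in NC and at 164 and 173 in sh-IRF1, ran from -0.51 to 0.12 and so took in the changes of all 8 CCT subunits. The CCT median of -0.31 also lay within the intervals of PFDN2 (-0.33 to 0.10) and PFDN6 (-0.53 to 0.05), while those of PFDN1 (-0.08 to 0.19) and PFDN5 (-0.08 to 0.23) began above the change of CCT3. The whole canonical transcript of PFDN5 (100% of its bases) and 27.3% of the exonic bases of PFDN6 overlap other genes.

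**Figure D3:**
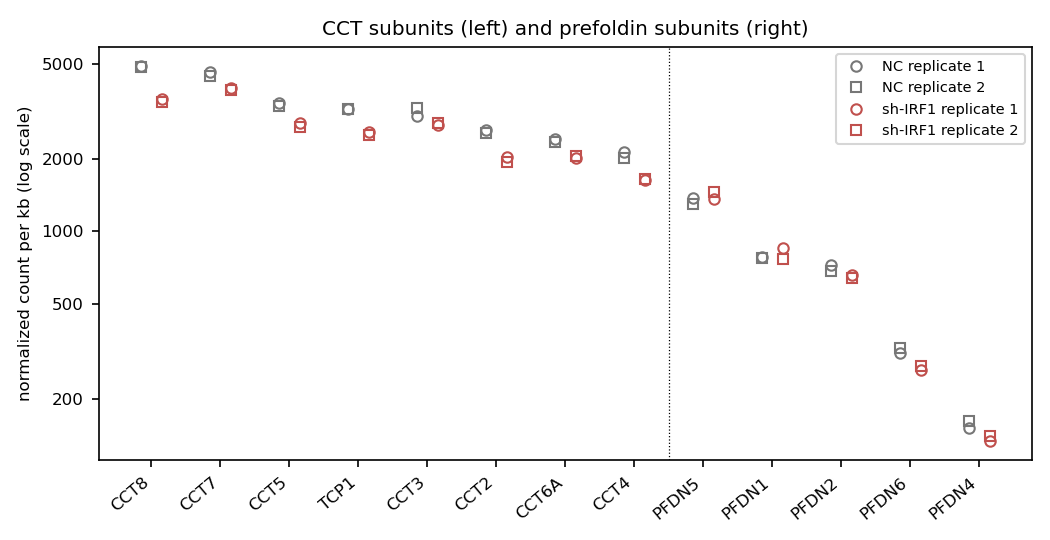
The plot gives the normalized count per kb of canonical transcript on a log y axis for the 8 CCT subunits (left) and 5 prefoldin subunits (right, without VBP1), with circles and squares for replicates 1 and 2, grey for NC and red for sh-IRF1. Every CCT subunit has both red points below both grey ones, and PFDN1 and PFDN5 do not.

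Of the 5 mitochondrial chaperones, 4 were called lower. HSPA9 (mortalin), the matrix HSP70 that pulls proteins through the import channel, was at 12481 and 12712 in NC and at 8909 and 8765 in sh-IRF1. The groups were well apart, with a log2 fold change of -0.51 (SE 0.0295, limma adjusted p = 1.42e-19). Against HSPA8, its cytosolic counterpart, HSPA9 stood at 0.274 and 0.277 per kb in NC and at 0.202 and 0.208 in sh-IRF1. HSPD1 (HSP60), the barrel of the matrix chaperonin, was at 10751 and 10808 in NC and at 8359 and 8564 in sh-IRF1 (log2 fold change -0.35, SE 0.0303, limma adjusted p = 1.52e-13). TRAP1, the mitochondrial HSP90, fell by 0.23 on the log2 scale (limma adjusted p = 1.50e-05), and DNAJA3, the matrix J protein, fell by 0.20 (limma adjusted p = 0.00133). TRAP1 shares 28.5% of its exonic bases with other genes.

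HSPE1 (HSP10), the lid of the HSPD1 barrel, was not called, whereas HSPD1 was, although both genes start at the ends of the same 104 bases. It was at 275 and 265 in NC and at 295 and 308 in sh-IRF1, so that both sh-IRF1 libraries were above NC, and the difference missed the threshold (log2 fold change 0.16, 95% interval -0.09 to 0.42, limma adjusted p = 0.324). That interval did not meet the one of HSPD1 (-0.41 to -0.29). Per kb, HSPD1 over HSPE1 was 9.70 and 10.1 in NC and 7.02 and 6.89 in sh-IRF1. Of the canonical HSPE1 transcript, 34.5% overlaps other genes, chiefly the read-through gene HSPE1-MOB4, which has no row in the table. How reads in the shared part were assigned is not given in the sources used here, so the level of HSPE1 and its ratio to HSPD1 are uncertain.

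HSPB1 (HSP27), a small heat shock protein that holds unfolded proteins and stabilises actin, was at 4343 and 4233 in NC and at 2419 and 2549 in sh-IRF1. Both sh-IRF1 libraries were far below NC, at 57.9% of its mean, and the log2 fold change was -0.79 (SE 0.0429, limma adjusted p = 1.88e-20). HSF1, the main activator of the heat shock response, was at 3476 and 3762 in NC and at 3552 and 3505 in sh-IRF1, with overlapping groups and a log2 fold change of -0.04 (limma adjusted p = 0.538). HSF2, a second factor of that family, was at 345 and 308 in NC and at 267 and 285 in sh-IRF1, and its change of -0.24 on the log2 scale did not pass the test (limma adjusted p = 0.118). The heat-inducible members did not move one way. Of HSPA1A, HSPA1B, DNAJB1, HSPB1, HSPH1, HSP90AA1 and BAG3, 7 genes known to be induced by heat, HSPB1, BAG3 and DNAJB1 were called lower, HSPA1A was called higher and the other 3 were not called. The constitutive relatives HSPA8 and HSP90AB1 were both called lower. Of the 6 members with a 3-unit heat shock element, 4 were called lower and 2, HSP90AA1 and DNAJA1, were not called, so that members with this element differed in their calls. Beside these counts stand 57.8% of the members and 21.9% of all genes called lower, and 2.22% and 20.3% called higher.

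Per kb of canonical transcript, the members spanned a wide range of levels. In NC the highest was HSPA8 at a mean of 10383 normalized counts per kb, followed by HSP90AB1 at 10130, HSP90AA1 at 5754, HSPB1 at 5519 and PTGES3 at 5518. The libraries of HSPB1 and PTGES3 overlapped, and those of the other neighbours did not. In sh-IRF1, PTGES3 was at 2250 per kb and HSPB1 at 3197, both below HSPD1 at 3769 and CCT8 at 3505. The lowest levels in NC belonged to HSPA1A at 56.2 and HSPA1B at 88.9 per kb.

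**Figure D4:**
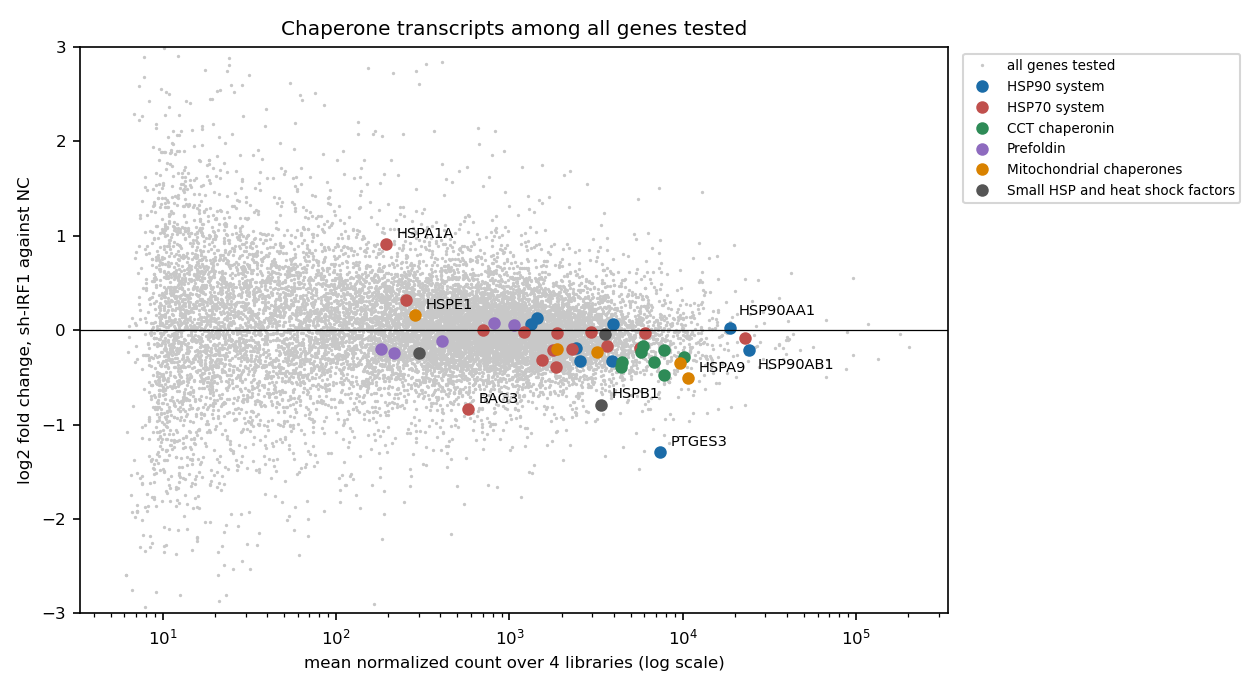
The plot gives the mean normalized count over the 4 libraries on a log x axis and the log2 fold change on the y axis, with grey points for all genes tested and coloured points for the 45 members by role. PTGES3 and HSPB1 lie at the lower edge of the genes of like level, and HSPA1A is among the members with fewest counts (27 genes beyond 3 on the y axis are not drawn).

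Chaperones and partners outside the 45, taken from lists set for this purpose, gave other counts. Beside them stand 21.9% of all genes called lower and 20.3% called higher, for the lists of clients too. Of 12 other HSP90 cochaperones tested, 1 was lower and 5 were higher (median log2 fold change 0.15). CACYBP, which binds ubiquitin ligases and HSP90, fell by 0.37 on the log2 scale (limma adjusted p = 4.85e-08), and FNIP2, a folliculin partner that slows the HSP90 ATPase, was at 56.4 and 71.9 in NC and at 229 and 222 in sh-IRF1 (log2 fold change 1.81, limma adjusted p = 9.47e-11). Of 21 other HSP70s, exchange factors and J proteins, 5 were lower and 9 were higher (median 0.10). HSPBP1, an exchange factor of HSP70, rose by 0.48 (limma adjusted p = 2.70e-11) and DNAJC21, a J protein of ribosome assembly, fell by 0.33 (limma adjusted p = 2.80e-07). In these lists 8.33% and 23.8% were called lower, and 41.7% and 42.9% higher. The shares called lower were thus smaller than among the members, the second being near that of all genes. The difference itself was not tested.

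Of 13 prefoldin partners, chaperonin regulators and tubulin cofactors, 4 were lower and 3 were higher (median -0.08), with URI1, an unconventional prefoldin, at -0.32 (limma adjusted p = 3.38e-08) and the tubulin cofactor TBCB at 0.40 (limma adjusted p = 9.35e-08). Of 14 other mitochondrial chaperones and proteases, 5 were lower and 3 were higher (median -0.08). LONP1, the main matrix protease, was at 12256 and 11834 in NC and at 9310 and 9118 in sh-IRF1 (log2 fold change -0.39, limma adjusted p = 4.10e-15), while SPG7, a protease of the inner membrane, rose by 0.28 (limma adjusted p = 1.31e-04). Of the 7 genes of the R2TP and TTT complexes, which assemble large kinases with HSP90, PIH1D1 fell by 0.30 (limma adjusted p = 1.42e-06) and none was higher. Of 4 other small heat shock proteins and regulators tested, IFT25 (HSPB11) fell by 0.40 (limma adjusted p = 0.00239).

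The clients of these chaperones were read from the same libraries. Of 11 actins and tubulins, which depend on CCT, 2 were lower and 7 were higher (median log2 fold change 0.11), with TUBA4A at 1077 and 1096 in NC and at 1941 and 1997 in sh-IRF1 (0.86, limma adjusted p = 4.89e-17) and TUBB4B at -0.26 (limma adjusted p = 1.60e-09). Most of the substrate transcripts of CCT were therefore called in the direction opposite to its subunits. Of 16 kinases and receptors known as HSP90 clients, 8 were lower and 1 was higher (median -0.13). FLT3, the receptor kinase that is mutated in MV4-11, was at 17391 and 17412 in NC and at 12745 and 12634 in sh-IRF1 (log2 fold change -0.46, limma adjusted p = 2.75e-19), and CDK4 rose by 0.18 (limma adjusted p = 0.00315, and 0.132 without sh-IRF1 replicate 1). NR3C1, the glucocorticoid receptor and a client of p23 and the FKBP proteins, was named after its values had been seen and fell by 0.46 (limma adjusted p = 4.20e-12). Of 4 glucocorticoid-induced genes tested, 3 were lower and 0 were higher, with KLF9 at -0.53 (limma adjusted p = 2.01e-08). MYC, which binds the E-box, was at 14198 and 14561 in NC and at 7380 and 7348 in sh-IRF1 (log2 fold change -0.97, limma adjusted p = 1.03e-29). Transcript levels alone were measured, and no protein or folding activity was read.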

How the data were processed

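Total RNA of MV4-11 cells was extracted with Trizol and made into libraries with the Illumina TruSeq RNA kit, in 2 NC and 2 sh-IRF1 libraries. The submitters' processing notes name HISAT2 2.0.5 and the build hg38. The counting tool, its annotation and whether strand was used are not given in the sources used here, and the study names FPKM and DESeq2 for its own comparison. The authors deposited 1 table of 23622 genes whose values are a normalized signal, gene-level reads over a size factor of the library. All of its 4 value columns were used and 0 others were present. Every value (100%) was a whole multiple, within 0.001 of a read, of what 1 read is worth in its library, and reads were recovered in this way. Depth ran from 17635908 to 18695337 reads, with 3.92% to 4.51% in mitochondrial genes and 6.24% to 6.68% in the 10 largest genes. Replicates differed by more than counting noise (chi-square per gene 2.93 in NC and 2.47 in sh-IRF1).

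The 14120 genes that reached a value of 10 in 2 or more libraries were tested on log2(value + 1), a scale that understates changes of low genes, with limma 3.58.1 in R 4.3.3 (trended, robust empirical Bayes, 43.0 prior degrees of freedom) and Benjamini-Hochberg adjustment. Alternatives were edgeR 4.0.16 and DESeq2 1.42.0 on the recovered reads, other scalings, filters and pseudocounts, and limma without its robust and trend settings. Others were a replicate block, leaving out each library, and HSPA1A summed with HSPA1B. On simulated data with 200 genes changed 2-fold, limma found 199 among 13751 genes with 8 false calls, edgeR found 199 among 13738 with 7, and DESeq2 found 195 among 13868 with 0. Only well expressed genes were changed, and every gene had the spread of the dispersion trend. The simulation therefore cannot speak to smaller changes, or to data where many more genes change.

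The members and lists were chosen with earlier results of these data known. All 45 members were named, and of each other list the called gene of smallest p, higher and lower, besides IRF1 and MYC. NR3C1 and VBP1 were named outside this rule, after their values had been seen. MPO, HSPA4L, HSPA2, HSPA14 and the called DNAJ genes other than DNAJC21 also fall outside it. Symbols were matched for 23456 of 23622 identifiers. Positions, canonical transcript lengths and overlaps came from GENCODE 44. Reads were taken as uncertain where another gene, of whichever strand, overlaps over 10% of the exonic bases, and for HSPA1A and HSPA1B. Without the 14 such members, 20 of 31 were called lower and 0 higher, and named pseudogenes held at most 3.62% of a member's own reads. Of the genes named outside the 45, IRF1, LYZ, CACYBP, TUBA4A, CDK4, DNAJC2 and HSPA14 share over 10% of their exonic bases too. Part of their reads is thus uncertain. Promoter windows from RefSeq (GRCh38.p14) matched 39 members, and the sequences shown were read from them. No spike-in is described, so changes are relative to the size factor of each library and are not absolute amounts of RNA. A B cell marker of the lists is not reported here.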

Additional observations from a re-analysis of the deposited data

How the results depend on the processing

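Of the alternatives run, limma without its robust and trend settings moved the counts most, with 1245 genes higher and 1282 lower and 10 members lower. There 16 members lost their call, with the same fold changes by construction. Scaling to total reads left 5 members higher and 25 lower, and a median of -0.16. A second member, HSPA1B, was called higher with a filter at 50 and with edgeR (2 higher in each), and UNC45A without NC replicate 1 (2 higher, limma adjusted p = 0.0492). Over all alternatives the adjusted p ranged from 0.0262 to 0.195 for HSPA1B, from 0.0136 to 0.318 for UNC45A, from 0.0184 to 0.737 for HSP90AA1, from 0.0167 to 0.569 for CDC37 and from 4.09e-04 to 0.353 for HSPA8. DESeq2 called the same number of members as limma, 26 lower and 1 higher. Members that were not called changed sign in some settings. With total-read scaling HSPH1 stood at 0.0164, DNAJA1 at 0.0269, BAG1 at 0.0118, STUB1 at 0.0235 and HSF1 at 0.00896. With each library left out, BAG1 ran from -0.111 to 0.0456 (above 0 without NC replicate 1), HSF1 from -0.0925 to 0.0215 (above 0 without NC replicate 2), PFDN1 from -0.0221 to 0.132 (below 0 without sh-IRF1 replicate 1) and BAG2 from -0.0524 to 0.0525 (below 0 without NC replicate 2, at -0.0231, and without sh-IRF1 replicate 2). BAG2 was also below 0 with TMM (-0.00256) and upper-quartile scaling (-0.00273). Of the genes named outside the 45, VBP1 lost its call in 5 settings, CDK4 in 2, and DNAJC21, SPG7, PIH1D1, IFT25 and TUBB4B in 1, limma without the robust and trend settings. Apart from DNAJC21, the DNAJ and HSPA genes outside the 45 were not followed through the settings.

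With each library left out in turn, between 2053 and 2679 genes were higher and between 2445 and 2723 lower, 1 to 2 members were higher and 25 to 26 lower, and beyond a log2 fold change of 0.5 these were 1 higher and 3 to 4 lower, since HSPA9 fell just short of that fold without NC replicate 2 and without sh-IRF1 replicate 2. The member median ranged from -0.21 to -0.19 and IRF1 from -0.86 to -0.78. HSPA8 was the member lost without sh-IRF1 replicate 2. The labels give both groups replicates 1 and 2, but deviations of libraries with the same number were hardly correlated (0.0113 over 9987 genes). Whether such libraries shared a culture or batch cannot be told from this value. A replicate block gave 2903 genes higher and 3147 lower, with 1 member higher and 26 lower, and changed no member's call. With 2 libraries a group the spread of a single gene is poorly known, and genes with few reads, such as the prefoldin subunits and HSPE1, could show only changes larger than their intervals.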
